A study of Homo sapiens with 4 samples.

Results

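The genes described here are 36 genes of the lysosome and of autophagy, chosen by name from the 65217 human genes of the deposited count table through GENCODE release 44. They comprise 18 genes of hydrolases (with the activator PSAP), 5 membrane and sterol egress genes, the transcription factors TFEB and TFE3, and 11 autophagy genes, and 35 of the 36 passed the filter on low counts. The counts come from SEM cells, an established human line of B-cell precursor acute lymphoblastic leukaemia with a KMT2A-AFF1 (MLL-AF4) fusion, grown as xenografts in immunodeficient mice. The brain group and the spleen group had 2 libraries each, and the question was what differed between leukaemic cells at these sites. Per the labels, each library combined RNA of 5 mice that were 6 to 10 weeks old when transplanted, a Ficoll gradient was used for purification, and the protocol names the leptomeninges as the source of the central nervous system cells. Both groups carry the same fusion and followed 1 protocol, 1 cell line stands for the disease, and the 2 replicates of a site are pools from separate occasions.

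Lysosomes are acidic organelles in which hydrolases break down proteins, lipids, glycans and glycogen, and from which the products are exported through membrane proteins. Autophagy encloses parts of the cytoplasm in a double membrane and delivers them to the lysosome. TFEB and TFE3 are related transcription factors that stay in the cytoplasm while nutrients are plentiful and switch on lysosomal and autophagy genes from the nucleus when they are scarce. In B-lineage cells the lysosomal route also prepares antigens for MHC class II molecules.

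Gene counts summed to between 26266136 and 36913437 per library. The 9 B-lineage markers summed to 2323 and 2217 CPM (gene counts per 1e6 counts in the library) in brain and to 1582 and 1652 CPM in spleen. Of 12 myeloid and macrophage markers 6 passed the filter and C1QA and C1QB were at 0 in all 4 libraries, and the list summed to 55.9 and 43.5 CPM in brain and 60.2 and 49.8 CPM in spleen, mainly CSF1R and AIF1. The 6 T and NK genes summed to 61.7 and 54.1 CPM in brain and 72.03 and 83.5 CPM in spleen, nearly all of it NKG7, with CD3D and CD2 at 0. Neutrophil genes summed to 2.17 and 2.60 CPM in brain and 4.82 and 5.48 CPM in spleen, mainly MPO, with S100A8, S100A9 and ELANE at 0. Erythroid genes summed to at most 0.244 CPM. Genes of glia, neurons and meninges summed to 2.44 and 2.03 CPM in brain and 0.970 and 1.10 CPM in spleen. Of these COL1A1 had the most counts (71 and 51 in brain, 12 and 21 in spleen), and SNAP25 was at 0. Mouse transcripts held 2.24% and 1.45% of estimated counts of the brain libraries, against 4.31% and 6.32% in those from spleen. The part of these markers and of mouse RNA in the results below was not tested. In bulk RNA, fewer cells with a transcript and less transcript per cell cannot be told apart.

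None of the 36 chosen genes passed the test between sites. By edgeR's quasi-likelihood test, 0 of 35 tested members were called higher and 0 lower in brain at an adjusted p under 0.05, where 2.02% of the 17075 genes tested were called, 1.63% higher and 0.387% lower. At an unadjusted p under 0.05 there were 2 members with higher and 4 with lower values in brain (17.1% of members), against 10.7% of all genes with higher and 9.94% with lower values (20.6% in all). DESeq2 called CTSH alone, lower, where it called 5.6% of all genes. Without the low-count filter NPC1 was called higher and CTSH, GABARAP and PSAP lower, 4 of 36, where 6.15% of all genes were called. Of the log2 fold changes, brain over spleen, 12 were positive and 23 negative, and they ran from -0.99 for CTSH to 1.19 for WIPI1. Their median was -0.15, beside 0.04 over all genes, and the median size regardless of sign was 0.25, beside 0.30.

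The missed threshold does not show that these genes were alike at the sites, and the intervals say how large a difference remains possible. For 32 of the 35 the 95% interval of the fold change lay within 1 log2 unit of 0, a property of 57.2% of all tested genes. The other 3 were CTSH, GABARAP and WIPI1. The members and all genes were not matched for count level, on which the width of an interval also depends. Both brain libraries were above both spleen libraries for 10 members and below them for 15, and the groups overlapped for 10. Over all genes 57% had no overlap, 30.2% above and 26.7% below, against 28.6% and 42.9% of the members.

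**Figure D1:**
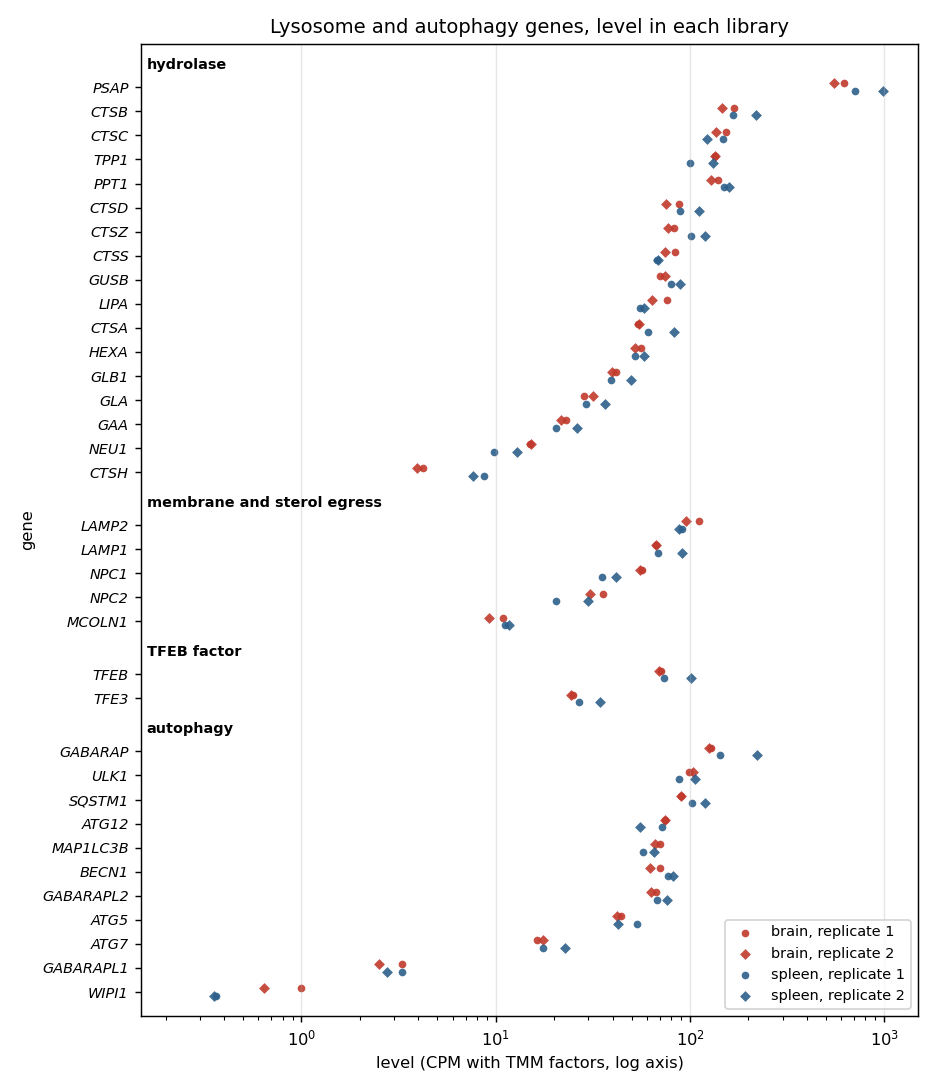
Level of each tested gene in every library, as CPM on a log axis, with brain libraries in red and spleen libraries in blue and genes grouped by role. The colours lie close together for most genes; CTSH and NPC1 show a gap, and PSAP reaches 983 CPM in spleen replicate 2.

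**Figure D2:**
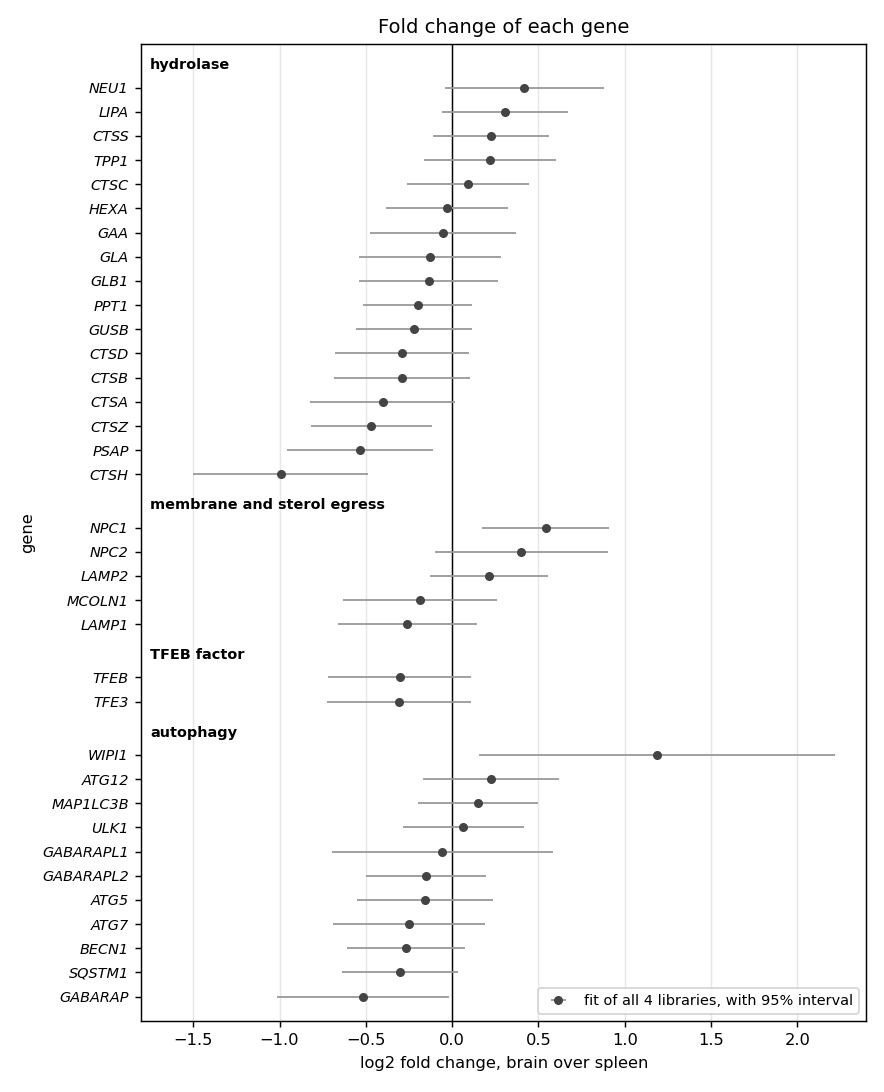
Log2 fold change of brain over spleen for each tested gene with its 95% interval (edgeR, 2 libraries against 2), by role. The interval excludes 0 without adjustment for CTSH, CTSZ, PSAP, NPC1, WIPI1 and GABARAP, and no gene passed after adjustment over all genes.

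Among the hydrolases, the difference nearest to the threshold was that of CTSH, cathepsin H, an aminopeptidase of the lysosome (chromosome 15, 78921058 to 78949574, GRCh38). It had 4.25 and 3.95 CPM in the brain libraries, against 8.71 and 7.60 CPM in the spleen libraries. The groups lay far apart, and the log2 difference was -1.03 on the first occasion and -0.94 on the second. The log2 fold change was -0.99 ± 0.22 (SE, 95% interval -1.50 to -0.48), with an adjusted p of 0.0679 by edgeR. The call was made with the replicate number as a block (adjusted p = 0.00832 by edgeR) and by DESeq2 without it (adjusted p = 0.0079), and it was not made by DESeq2 with the block (adjusted p = 0.165) or after removal of the trend with GC content and length (log2 fold change -0.80, adjusted p = 0.0921). Over the 15 alternatives the adjusted p of CTSH ran from 0.00284 without spleen replicate 2 to 0.296 without brain replicate 2, and the sign was negative in all of them.

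PSAP, the precursor of the saposins that present sphingolipids to their hydrolases, had the highest CPM of the members. It had 618 and 549.9 CPM in brain, against 709 and 983 CPM in spleen, for a log2 difference of -0.53 ± 0.18 (adjusted p = 0.16, edgeR). The brain libraries were close to each other and below both spleen libraries, and spleen replicate 2 stood well above the rest. Without that library the log2 fold change was -0.27 (adjusted p = 0.0672), and without spleen replicate 1 it was -0.80 (adjusted p = 3.22e-07), the ends of the fold changes over 15 alternatives, whose adjusted p reached 0.707. CTSZ, a carboxypeptidase of the cathepsin family, had 82.3 and 77.2 CPM in brain, against 101 and 119.9 CPM in spleen, without overlap, and a log2 fold change of -0.47 ± 0.15 (adjusted p = 0.147, edgeR).

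The remaining cathepsins did not share a direction. CTSA, the carboxypeptidase that also protects GLB1 and NEU1 in a complex, had 54.1 and 54.4 CPM in brain and 60.8 and 82.7 CPM in spleen. CTSD, the main aspartic protease of lysosomes, had 87.8 and 75.3 CPM in brain and 88.6 and 111 CPM in spleen, again with the highest value in spleen replicate 2. CTSB, a cysteine protease, had 168 and 146 CPM in brain and 167 and 218 CPM in spleen, and the groups overlapped. In the other direction lay CTSS, the cysteine protease that trims the invariant chain of MHC class II molecules. It had 84.01 and 74.7 CPM in brain, against 67.3 and 68.4 CPM in spleen, for a log2 difference of 0.23 ± 0.15 (95% interval -0.11 to 0.56, adjusted p = 0.411, edgeR). CTSC, which activates granule proteases in other blood cells, had 152 and 135 CPM in brain and 147 and 123 CPM in spleen, with overlap and a log2 fold change of 0.09 ± 0.15. CTSL, cathepsin L, had 1 and 0 counts in the brain libraries, against 0 and 0 in the spleen libraries, which is at or under the limit of 3 counts that a count of 0 allows (0.0813 to 0.114 CPM, counting error only), so no fold change is given.

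For the enzymes that cut glycans and sphingolipid sugars, no difference passed the test. NEU1, the sialidase that removes terminal sialic acids, had 14.98 and 15.2 CPM in brain, against 9.80 and 12.8 CPM in spleen, the largest positive log2 fold change among the hydrolases (0.42 ± 0.20, adjusted p = 0.28, edgeR). Its partner GLB1, the lysosomal beta-galactosidase, overlapped between sites with 41.7 and 39.6 CPM in brain and 39.4 and 49.99 CPM in spleen. Thus the 3 genes of the NEU1, GLB1 and CTSA complex had log2 fold changes of 0.42, -0.14 and -0.40. Without spleen replicate 1 these were 0.18, -0.35 and -0.66, and without spleen replicate 2 they were 0.64, 0.06 and -0.15. GUSB, beta-glucuronidase, had 69.9 and 74.8 CPM in brain, below its 80.2 and 88.7 CPM in spleen. HEXA, a subunit of the hexosaminidase that degrades GM2 ganglioside, had 56.1 and 52.1 CPM in brain and 52.2 and 58.3 CPM in spleen. GLA, an alpha-galactosidase, and GAA, which digests glycogen, also overlapped, with log2 fold changes of -0.13 ± 0.18 and -0.05 ± 0.18.

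Of the enzymes for lipids and for lipid-bound or small peptides, LIPA and TPP1 had higher values and PPT1 lower values in brain, with no call. LIPA, the acid lipase that frees cholesterol from its esters, had 76.3 and 63.6 CPM in brain, against 55.2 and 57.9 CPM in spleen (log2 fold change 0.31 ± 0.16, adjusted p = 0.313, edgeR). TPP1, a tripeptidyl peptidase, had 135 and 134 CPM in brain, against 99.9 and 132 CPM in spleen, so that its separation rested on spleen replicate 1. PPT1, which removes fatty acids from proteins, had 139.7 and 129 CPM in brain and 149 and 159 CPM in spleen.

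NPC1 and NPC2 pass cholesterol out of the lysosome, NPC2 in the lumen and NPC1 in the membrane, and both had higher values in brain without a call. NPC1 (chromosome 18, 23506184 to 23586506) had 56.5 and 55.5 CPM in brain, against 35.3 and 41.6 CPM in spleen, with no overlap. Its log2 fold change was 0.54 ± 0.16 (95% interval 0.17 to 0.91, adjusted p = 0.124, edgeR), positive on both occasions (0.68 and 0.41) and under every alternative run, and it was 0.46 with the GC and length trend removed (adjusted p = 0.0604, in a range of 5.16e-05 to 0.677 over the 15 alternatives). NPC2 had 35.7 and 30.7 CPM in brain, against 20.4 and 30.003 CPM in spleen, for a log2 difference of 0.40 ± 0.22 (adjusted p = 0.332, edgeR). Spleen replicate 1 stood lowest, and without it the log2 fold change of NPC2 was 0.097. By occasion it was 0.81 on the first and 0.04 on the second.

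The main glycoproteins of the lysosomal membrane had fold changes of opposite sign, again without a call. LAMP2 had 112 and 94.98 CPM in brain, against 90.5 and 88.1 CPM in spleen, and a log2 fold change of 0.21 ± 0.15 that turned to -0.11 once the GC and length trend was removed. LAMP1 had 66.6 and 66.9 CPM in brain, against 68.5 and 91.5 CPM in spleen, with spleen replicate 2 alone standing off. MCOLN1, the calcium channel through which lysosomes signal, had 10.9 and 9.22 CPM in brain and 11.1 and 11.8 CPM in spleen (log2 fold change -0.19 ± 0.19).

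TFEB and TFE3 bind DNA at a palindrome known as the CLEAR element, built around the core CACGTG, near the start of many lysosomal genes. TFEB (chromosome 6, 41683978 to 41736259) had 71.3 and 69.6 CPM in brain, against 73.4 and 101 CPM in spleen, for a log2 difference of -0.30 ± 0.18 (adjusted p = 0.372, edgeR). TFE3 had 25.1 and 24.4 CPM in brain, against 26.8 and 34.4 CPM in spleen, for a log2 difference of -0.31 ± 0.18 (adjusted p = 0.366, edgeR). In both genes the brain libraries and spleen replicate 1 lay together and spleen replicate 2 was higher. Without spleen replicate 2 the log2 fold changes were -0.05 for TFEB and -0.11 for TFE3, and without spleen replicate 1 they were -0.57 and -0.53. The activity of these factors is set largely by their place in the cell, which RNA does not measure.

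RefSeq promoter windows (GRCh38.p14) span 250 bases before to 50 after a RefSeq start, which can differ from the GENCODE start of the gene. They were found for 31 of the 36 members, in 39 windows, but not for CTSB, CTSS, HEXA, LAMP2 and PSAP. The letters TCACGTGA stood in windows of 4 members, CTSA, GAA, LAMP1 and MCOLN1 (12.9% of the 31, against 1.18% of 27305 genes and 0.980% of all windows). The shorter core CACGTG, which lies within it, stood in 6 members (19.4%, against 8.77% of genes and 7.26% of all windows), the others being CTSD and NEU1. Both motifs read the same on either strand, and a match is a description of the letters only. The windows of the 4 members are printed because they hold the letters bound by the factors described above, with TCACGTGA in capitals. They lie on the plus strand at chr19:7522374-7522673, chr17:80101331-80101630, chr20:45891085-45891384 and chr13:113296989-113297288.
MCOLN1: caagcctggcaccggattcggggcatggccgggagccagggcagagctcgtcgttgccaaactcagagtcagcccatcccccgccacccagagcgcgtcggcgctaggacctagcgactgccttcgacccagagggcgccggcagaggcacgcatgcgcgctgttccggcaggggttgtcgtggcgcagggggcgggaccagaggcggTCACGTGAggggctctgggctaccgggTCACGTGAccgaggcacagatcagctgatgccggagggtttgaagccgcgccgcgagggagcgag
GAA: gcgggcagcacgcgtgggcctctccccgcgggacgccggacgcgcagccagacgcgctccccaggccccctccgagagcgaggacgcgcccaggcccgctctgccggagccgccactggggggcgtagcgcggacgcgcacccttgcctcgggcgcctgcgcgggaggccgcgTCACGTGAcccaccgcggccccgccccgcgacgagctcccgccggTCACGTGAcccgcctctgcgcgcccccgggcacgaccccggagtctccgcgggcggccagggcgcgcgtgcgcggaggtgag
CTSA: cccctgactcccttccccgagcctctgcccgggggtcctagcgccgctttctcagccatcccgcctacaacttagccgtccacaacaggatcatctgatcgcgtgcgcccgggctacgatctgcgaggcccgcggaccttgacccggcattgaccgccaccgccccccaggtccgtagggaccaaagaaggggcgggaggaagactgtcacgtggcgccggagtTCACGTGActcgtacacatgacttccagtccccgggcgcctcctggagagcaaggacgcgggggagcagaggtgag
LAMP1: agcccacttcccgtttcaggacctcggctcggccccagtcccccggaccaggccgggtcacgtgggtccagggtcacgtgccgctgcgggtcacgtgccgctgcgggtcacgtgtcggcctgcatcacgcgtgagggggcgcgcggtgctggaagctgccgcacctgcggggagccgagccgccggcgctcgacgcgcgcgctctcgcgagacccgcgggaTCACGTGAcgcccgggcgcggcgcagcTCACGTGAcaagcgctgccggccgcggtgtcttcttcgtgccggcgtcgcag
The capitals begin 42 and 15 bases before the RefSeq start in MCOLN1, 77 and 32 bases before it in GAA, 26 in CTSA, and 29 and 2 in LAMP1. In CTSA and GAA the GENCODE gene starts further upstream, at 45890144 and 80101533. The log2 fold changes of these 4 genes between sites were -0.19, -0.05, -0.40 and -0.26, and none was called. Without spleen replicate 2 they were -0.13, 0.15, -0.15 and -0.02, and with the GC and length trend removed that of GAA was 0.014. Without spleen replicate 1 they were -0.28, -0.27, -0.66 and -0.51.

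Of the 11 autophagy genes 0 were called by edgeR. At an unadjusted p under 0.05, 1 had a higher and 1 a lower value in brain (18.2%, beside 20.6% of all genes). The ATG8 proteins are attached to the growing membrane, and of their genes GABARAP (chromosome 17, 7240008 to 7242449) had 128 and 126 CPM in brain, against 143 and 220.1 CPM in spleen. The brain libraries were nearly equal and the 2 spleen libraries far apart. Its log2 fold change was -0.52 ± 0.21 (95% interval -1.01 to -0.02, adjusted p = 0.23, edgeR), and -0.16 without spleen replicate 2. GABARAPL2 had 66.9 and 62.7 CPM in brain and 67.4 and 76.6 CPM in spleen. MAP1LC3B, which encodes the widely used autophagosome marker LC3B, had 69.7 and 66.1 CPM in brain and 57.1 and 65.3 CPM in spleen. GABARAPL1 was low, at 3.30 and 2.52 CPM in brain and 3.28 and 2.77 CPM in spleen, and its 95% interval was -0.70 to 0.58. Counts of GABARAPL1 and MAP1LC3B are uncertain in so far as near-identical copies elsewhere in the genome share their reads.

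SQSTM1, the cargo receptor p62, is itself degraded by autophagy as a protein. Its transcript had 89.9 and 90.3 CPM in brain, against 103 and 119 CPM in spleen, for a log2 difference of -0.30 ± 0.15 (adjusted p = 0.285, edgeR). The brain libraries lay below both spleen libraries. ULK1, the kinase that starts autophagy, had 99.4 and 104 CPM in brain and 87.9 and 106 CPM in spleen, with overlap. BECN1, a subunit of the lipid kinase complex that marks the nascent membrane, had 70.1 and 61.98 CPM in brain and 76.9 and 82.2 CPM in spleen. WIPI1, a reader of that lipid mark, had the largest positive log2 fold change of the members, 1.19 ± 0.45 (adjusted p = 0.192, edgeR), on 37 and 22 counts in the brain libraries and 12 and 9 counts in the spleen libraries. Its 95% interval was 0.15 to 2.22, and it had the fewest counts of the tested members.

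The conjugation enzymes were likewise uncalled. ATG7, the activating enzyme of both conjugation systems, had 16.3 and 17.6 CPM in brain and 17.5 and 22.8 CPM in spleen. ATG12 had 74.1 and 74.7 CPM in brain and 72.2 and 55.1 CPM in spleen, and its partner ATG5 had 43.99 and 41.9 CPM in brain and 53.2 and 42.5 CPM in spleen. ATG12 was lowest in spleen replicate 2 and ATG5 highest in spleen replicate 1, and ATG12 and ATG5 have low GC contents (37.1% and 38.5%). With the GC and length trend removed their log2 fold changes were -0.05 and -0.36, in place of 0.22 and -0.16.

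Levels between genes can be compared per length, in TPM (a level per transcript length, rescaled here to a total of 1e6 over human transcripts). GABARAP was highest, with 333 and 341 TPM in brain and 358 and 491 TPM in spleen, and PSAP followed with 296 and 282 TPM in brain and 341 and 418 TPM in spleen. The order of this pair was the same in each library. Next came CTSC, CTSB and GABARAPL2, whose mean levels over the 4 libraries, 111, 109 and 106 TPM, lay within the spread of CTSC and CTSB between libraries. TFEB, at 58.4 and 58.8 TPM in brain and 59.5 and 73.9 TPM in spleen, was several times as abundant as TFE3, at 10.7 and 11.5 TPM in brain and 11.1 and 13.04 TPM in spleen. Of the genes tested, 84.97% had a lower mean than TFEB. At the low end stood NEU1 with a mean of 8.77 TPM, GABARAPL1 with 2.28 and WIPI1 with 0.781. The 36 genes together took 2209 and 2179 TPM in the brain libraries and 2178 and 2392 TPM in the spleen libraries, and the 18 hydrolases took 1219 and 1196 TPM in brain and 1218 and 1302 TPM in spleen.

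Values differed by occasion and by spleen library. On the first occasion the median log2 fold change of the 35 members was -0.01 with 17 positive, and on the second it was -0.27 with 11 positive. The same medians over all genes were 0.0016 and 0.06, with 8564 and 9236 of 17075 genes positive. Signs matched on both occasions for 29 of the 35 members and for 11481 of the 17075 genes. Without spleen replicate 1, 2 members were called higher and 18 lower (57.1%, beside 37.9% of all genes), with a median of -0.29. Without spleen replicate 2, 5 were called higher and 3 lower (22.9%, beside 17.3% of all genes), with a median of -0.03. Such fits assume that the lone spleen library varies like the brain libraries, which lie close together. CTSH and CTSZ were called lower and NPC1 higher in both of these fits, while LIPA, NEU1, NPC2 and TPP1 (higher) and ATG5 (lower) were called without spleen replicate 2 but not without spleen replicate 1.

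**Figure D3:**
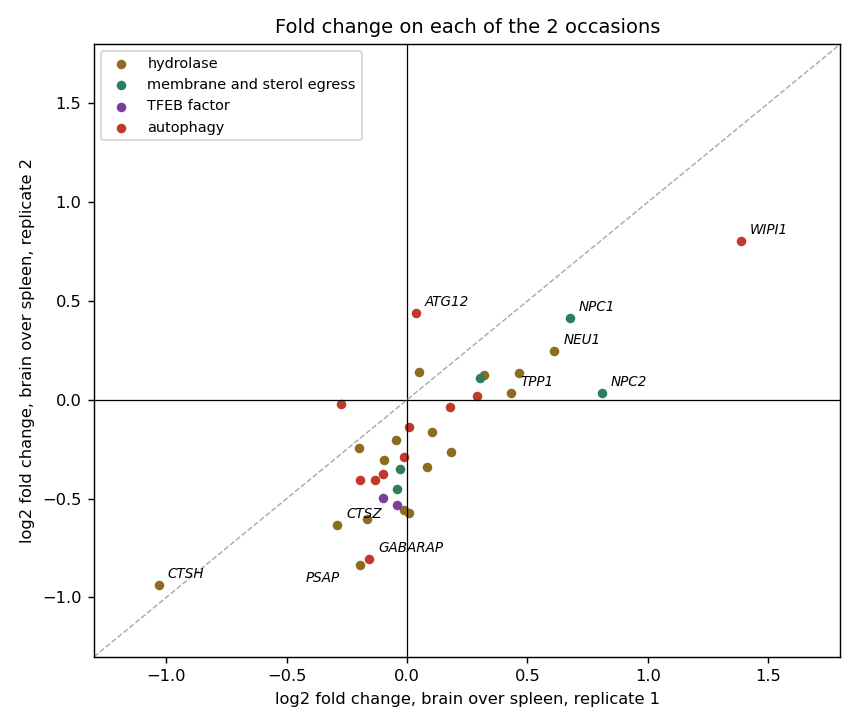
Log2 fold change of brain over spleen on each of the 2 occasions, 1 point per tested gene, coloured by role, with the dashed line marking equal values. Most points lie below the line, CTSH is near -1 on both occasions, and NPC2, GABARAP, PSAP and CTSB differ most between them.

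A trend with GC content and transcript length, fitted jointly in each library, also differed on average between the groups. Whether the site or a single library carried it was not tested. The fitted trend of the libraries with GC content and transcript length alone amounted to log2 fold changes of -0.24 to 0.30 over the members, lowest for CTSZ (-0.24) and highest for LAMP2 (0.30) and ATG12 (0.29). With the trend removed, 0 of 35 members were called, beside 3.6% of all genes, and the median of the members was -0.07. The log2 fold changes of NPC2 and WIPI1 were then further from 0, at 0.60 in place of 0.40 and 1.36 in place of 1.19. Those of CTSH and PSAP were nearer to 0, at -0.80 in place of -0.99 and -0.49 in place of -0.53. Also nearer to 0 were CTSZ (-0.22 in place of -0.47), TFEB (-0.11 in place of -0.30) and GABARAP (-0.31 in place of -0.52).

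The transcript files describe which forms of each gene were counted, as shares of the gene's TPM. These are estimates by the authors' program from reads that several transcripts share, and no test was made. The genes named here were picked after their values were seen. In TFE3, the coding transcript TFE3-201 made up 70.1 and 67.9% in brain, against 53.6 and 52.6% in spleen, and TFE3-204, annotated as a target of nonsense-mediated decay, 27.5 and 23.96% in brain, against 45.8 and 44.8% in spleen. The groups did not overlap in either form. In TPM the coding form was 7.53 and 7.81 in brain, against 5.94 and 6.86 in spleen, the opposite order to the gene's CPM. In TFEB, which has 13 coding transcripts, TFEB-207 took 45.3 and 40.6% in brain, against 60.6 and 60.6% in spleen. The 13 together held 99.6 and 98.7% in brain and 100 and 99.4% in spleen, so this shift lay between coding forms. TFE3-204 and TFEB-207 had the largest shifts in share without overlap among members over 10 TPM.

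LAMP2 is made with 3 alternative tails, of which A serves chaperone-mediated autophagy. The B form (LAMP2-202) dominated, with 70.8 and 69.9% in brain, against 76.5 and 80.2% in spleen. A further transcript, LAMP2-204, is annotated as a decay target. It took 9.72 and 11.1% in brain, against 5.55 and 0% in spleen. In mean share, brain minus spleen, the B form shifted by -7.98 points and LAMP2-204 by 7.64 points. The lower B share in brain thus does not by itself show a change between the tails. The A form (LAMP2-201) had 15.9 and 13.96% in brain and 14.96 and 16.9% in spleen, with overlap between sites, and the C form (LAMP2-203) had 3.54 and 5.03% in brain and 3.01 and 2.91% in spleen. As a mean over the 4 libraries, coding transcripts took under 50% of the TPM of 3 members, CTSH, ATG12 and WIPI1. By estimated counts, not scaled for length, ATG12 was mainly coding. Its coding forms had 1926 and 1653 estimated counts in brain, beside 2739 and 2553 counts of the gene. In spleen they had 1665 and 1064, beside 2380 and 1392. The lowest share was that of CTSH. Coding forms of CTSH took 7.34 and 4.88% of its TPM in brain and 3.61 and 3.50% in spleen, where the median member had 88.0%. Most estimated counts of CTSH fell on CTSH-202, annotated as a decay target (63.2 and 45.8 in brain, against 124 and 95.9 in spleen), and CTSH-217, with no defined reading frame (51.8 and 56.5 in brain, against 110.4 and 66.6 in spleen). The coding forms had 25.4 and 15.7 estimated counts in brain, against 23.9 and 15.7 in spleen. Scaled for depth and length this was 0.458 and 0.319 TPM in brain, against 0.469 and 0.361 TPM in spleen, with overlap between the sites.

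**Figure D4:**
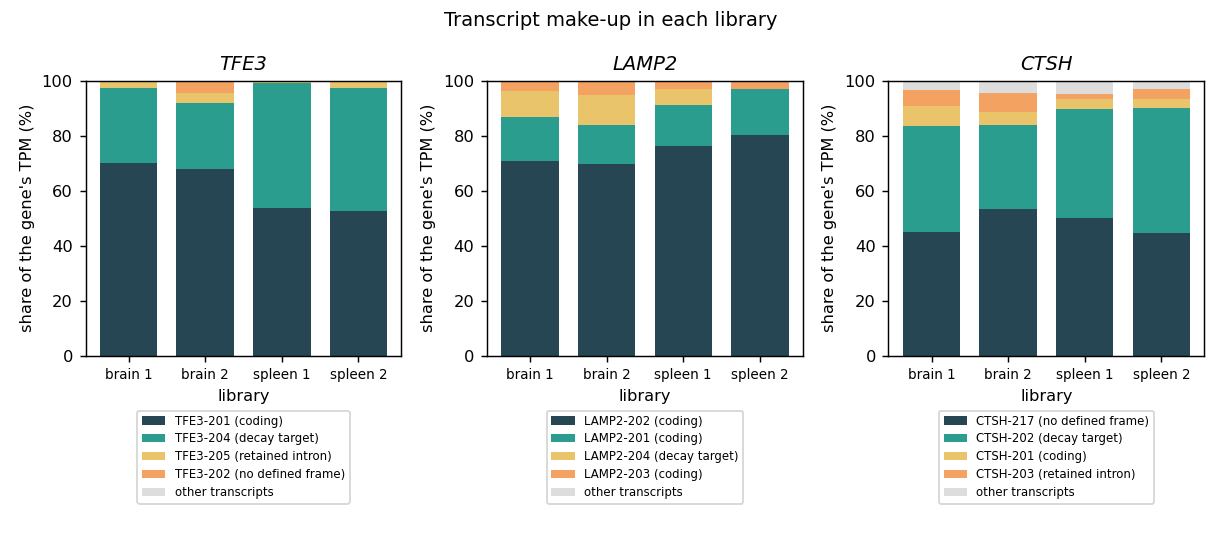
Share of each transcript in the TPM of TFE3, LAMP2 and CTSH, per library, with brain libraries left of spleen libraries and annotated classes in the legend. The decay-target form of TFE3 is larger in both spleen libraries, LAMP2 is mainly the B form (LAMP2-202) in all 4, and CTSH has little coding transcript.

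Of 147 further genes of the same pathways in 7 lists, 145 were tested, and 3 rose and 1 fell in brain (2.02% of all genes were called). With the replicate number as a block 15 were higher and 4 lower, beside 10.9% of all genes, and of the members CTSH alone was called. Fits with 1 library left out rest on a single pool at a site. Their ranges stand in the closing section, beside those over all genes. The 3 that rose were among 16 cargo receptors, which tie organelles to the autophagy membrane. BNIP3, a receptor for mitochondria that is known to be induced by low oxygen, had 85.3 and 93.4 CPM in brain, against 21.5 and 17.6 CPM in spleen, for a log2 difference of 2.19 ± 0.17 (adjusted p = 0.00179, edgeR). Its relative BNIP3L had 236 and 210.1 CPM in brain, against 85.3 and 65.6 CPM in spleen, and rose by 1.56 ± 0.17 (adjusted p = 0.0068, edgeR). Both genes were far apart between sites relative to the spread within a site. RETREG1, a receptor for endoplasmic reticulum, had 15.3 and 14.6 CPM in brain, against 6.64 and 4.79 CPM in spleen, and rose by 1.39 ± 0.22 (adjusted p = 0.0282, edgeR), a call that ended with the stricter filter alone of 15 alternatives (adjusted p = 0.057). The list's median log2 fold change was 0.20, and 13 of its 16 members were not called.

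Among 23 other lysosomal membrane genes 1 fell and 0 rose. CD63, a tetraspanin of late endosomes and lysosomes, had 119 and 109 CPM in brain, against 196 and 256 CPM in spleen, for a log2 difference of -0.99 ± 0.17 (adjusted p = 0.0331, edgeR). The call ended when the filter was stricter (adjusted p = 0.0599), and also when brain replicate 2 was left out (adjusted p = 0.1001), the highest of its 15 alternatives. By contrast the median of that list was 0.15.

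In the remaining 5 lists 0 genes were called by edgeR. Counts at an unadjusted p under 0.05 are to be read against the 20.6% of all genes that passed it. They took 22.6% of the other hydrolases, 23.5% of the proton pump, 25% of the sorting genes and 7.41% of the core autophagy genes. Of the genes of mTORC1 and its control they took 36.8%. Other hydrolases (31 tested of 32) had a median log2 fold change of 0.03, with 5 higher and 2 lower at an unadjusted p under 0.05. DPP7, a dipeptidyl peptidase, had 105 and 102 CPM in brain and 115 and 141 CPM in spleen. The 17 genes of the proton pump that acidifies the lysosome had a median of -0.13, with 0 higher and 4 lower at an unadjusted p under 0.05. Of them ATP6V0B had 114 and 115 CPM in brain, against 131 and 209 CPM in spleen, and TCIRG1 103 and 126 CPM in brain, against 85.9 and 95.4 CPM in spleen. Genes that sort enzymes to the lysosome (12) had a median of 0.0012, with 2 higher and 1 lower at an unadjusted p under 0.05. The mannose 6-phosphate receptor gene M6PR had 167 and 164 CPM in brain and 174 and 180.2 CPM in spleen, and the adaptor GGA2 had 183 and 192 CPM in brain and 159.8 and 183 CPM in spleen.

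Other core autophagy genes (27 tested of 28) had a median of 0.09, with 2 higher and 0 lower at an unadjusted p under 0.05. ATG13, a partner of ULK1, had 96.4 and 92.1 CPM in brain and 104 and 120.1 CPM in spleen, and WDR45B, a relative of WIPI1, had 102 and 92.05 CPM in brain and 94.03 and 101 CPM in spleen. The last list holds genes of mTORC1, the nutrient-sensing kinase complex that holds TFEB in the cytoplasm, and of its lysosomal anchors. It also holds regulators of mTORC1, among them TSC1, TSC2 and FLCN, and the transcription factor gene MITF. Its 19 genes had a median of 0.14, with 3 higher and 4 lower at an unadjusted p under 0.05. The kinase gene MTOR had 115 and 119 CPM in brain and 106 and 106 CPM in spleen, and RHEB, its activator, had 79.2 and 76.2 CPM in brain, below its 99.9 and 91.9 CPM in spleen (log2 fold change -0.30 ± 0.14, adjusted p = 0.27, edgeR).

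**Figure D5:**
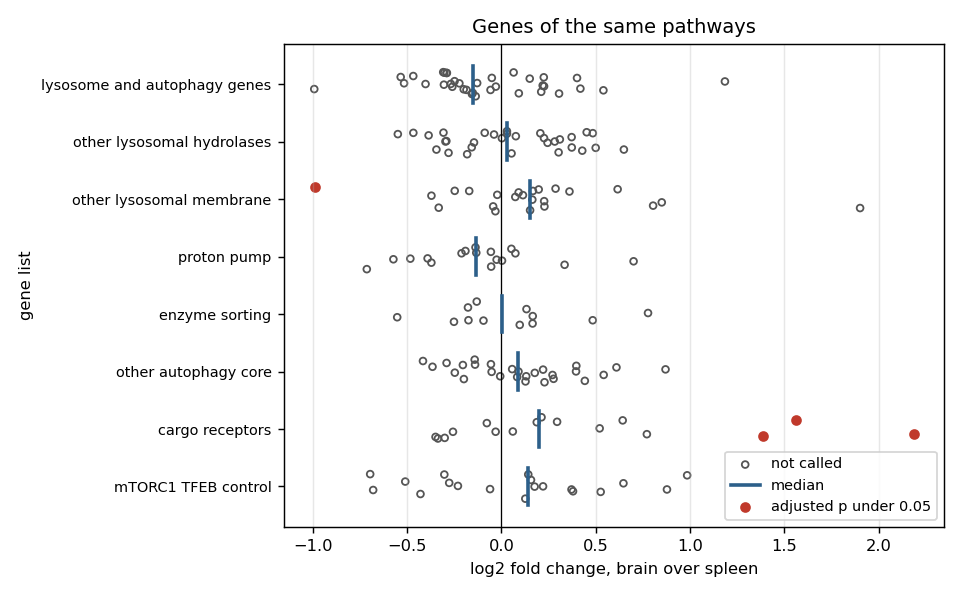
Log2 fold change of brain over spleen for the lysosome and autophagy genes (top) and for the 7 further lists, 1 point per tested gene, filled red where the adjusted p was under 0.05, with the median as a bar. The filled points are CD63 on the left and RETREG1, BNIP3L and BNIP3 on the right, and the medians run from -0.15 to 0.20.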

How the data were processed

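According to the submitters' processing notes, reads passed through bcl2fastq 1.8.4, cutadapt 1.5 and kallisto 0.42.4, with DESeq2 afterwards and GRCh38 and GRCm38 as builds. No source used here gives the settings, the strand option or the annotation. The authors deposited estimated counts per human gene, rounded to whole numbers, and, for each transcript of human and mouse, estimated counts and TPM. Of the series' tables, 2 columns match no sample and were not used, and a log-scale table was not used. Symbols came from GENCODE release 44 (86.4% of identifiers). Of the 36 members, 25 overlap another annotated gene, so their counts are uncertain where strand was not used.

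The sites were compared with edgeR 4.0.16 (quasi-likelihood, robust, TMM factors, filterByExpr, R 4.3.3), with Benjamini-Hochberg adjustment over 17075 genes, after a check on simulated data. Fold changes are log2, with the SE implied by the test statistic and unadjusted 95% intervals. CPM uses TMM factors, except in marker sums, which use table totals. Named members had, within a role, the 2 largest fold changes or the 2 highest levels, or had no overlap with an unadjusted p under 0.05; from each further list came the called genes (up to 4) or else the 2 of highest CPM. A further gene that this rule names is not reported here. The other members are given for completeness. Members and lists were chosen with earlier results of these data known. Libraries of a group differed beyond sampling noise (mean chi-square per gene 9.35 in brain and 64.1 in spleen), and p-values measure the spread between these pools. The labels' protocol states that the experiment was done on 2 occasions, numbered as the replicates, so the number was taken to pair the sites, although deviations of same-numbered libraries correlated at only 0.0299 (Pearson, across genes, which are not independent replicates). Alternatives were DESeq2 1.42.0, the replicate block, other factors and filters, GC and length offsets (mgcv 1.9.3), transcript sums, coding genes alone and leaving out each library.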

Additional observations from a re-analysis of the deposited data

How the results depend on the processing

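Of the members, 0 were called higher and 0 lower as reported. Without the low-count filter 1 was higher and 3 lower, and DESeq2 and the replicate block each gave 1 lower, while leaving out 1 library gave 0 to 5 higher and 0 to 18 lower. The member median stayed negative in all alternatives run, between -0.29 and -0.03 when a library was left out. For the further pathway genes (3 higher, 1 lower), calls higher in brain numbered 15 without the filter, 7 by DESeq2, 15 with the replicate block, 6 with the GC and length trend removed and 6 with that and the block. Calls lower numbered 6 without the filter, 0 with the stricter filter, 2 by DESeq2 and 4 with the replicate block. Leaving out 1 library gave 3 to 32 higher and 0 to 38 lower. Over all genes (279 higher, 66 lower), the calls higher and lower were 1269 and 854 without the filter, 108 and 16 with the stricter filter, 560 and 397 by DESeq2, 1278 and 575 with the replicate block, 442 and 172 with the trend removed, 491 and 168 with that and the block, and 184 and 17 for protein-coding genes alone. DESeq2 with the block gave 101 lower. Leaving out 1 library gave 297 to 3392 higher and 107 to 3415 lower. The cause was not tested.

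The members named by the rule above were CTSC, CTSH, CTSZ, PSAP, LAMP2, NPC1, NPC2, TFEB, TFE3, GABARAP, GABARAPL2 and WIPI1. Among them signs turned in 3 cases. LAMP2 was -0.11 with the trend removed and -0.090 with that and the replicate block. CTSC was -0.020 without spleen replicate 2, with a range of -0.020 to 0.18 when a library was left out. Signs also turned in members outside that rule, among them HEXA, GLA, GLB1, GAA, GABARAPL1, ULK1, TPP1 and ATG12. In 18 further cases a named member passed the threshold under an alternative, and 158 kept direction and side. WIPI1 had no value under the stricter filter. The block changed the call of no other member than CTSH. The fit rests on 2 pools a site, and GABARAPL1, WIPI1 and CTSL had few counts.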
